A study of Rattus norvegicus with 3 samples.

Results

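Microtubules are hollow polymers of alpha and beta tubulin along which kinesin and dynein motors carry vesicles, organelles and RNA, kinesins mostly toward the plus end and cytoplasmic dynein toward the minus end. Dynein works as a large complex of heavy, intermediate, light intermediate and light chains and is made processive by dynactin, while microtubule-associated proteins stabilise the polymer and stathmins destabilise it. In fibroblast-like cells such as mesenchymal stromal cells these tracks run from the cell centre out to the protrusions.

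The genes described here are the microtubule motors, tubulins and associated proteins in RNA of extracellular vesicles, small membrane-enclosed particles shed by cells. They were chosen by symbol among protein-coding genes, as kinesins (Kif and Kifc), kinesin light chains (Klc1 to Klc4), cytoplasmic dynein subunits (Dync and Dynl), dynactin subunits (Dctn), tubulins, end-binding and classical microtubule-associated proteins (Mapre and Map) and stathmins (Stmn). The choice left out Kif1c and Dynll1. It gave 99 of the 29684 genes measured, including Dynlt2b-ps1 and Kif28p, which their descriptions name as pseudogenes. The 99 were made up of 40 kinesins, 4 kinesin light chains, 19 dynein subunits, 5 dynactin subunits, 18 tubulins, 8 end-binding and associated proteins and 5 stathmins. The vesicles were taken from the supernatant of cultured adipose-derived mesenchymal stem cells, multipotent stromal cells taken from the groin fat of wild-type rats. There was 1 group of 3 libraries of total RNA, replicates 1 to 3, from 3 batches of vesicles, with no untreated or treated counterpart and no library of the cells themselves. Nothing in the labels ties a batch to an animal or culture of its own, so the spread between libraries can be technical. More vesicles that carry an RNA and more of that RNA in each vesicle cannot be told apart in such libraries.

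The deposited gene counts summed to 5219920 in replicate 1, 6786182 in replicate 2 and 6618461 in replicate 3. Levels are the authors' FPKM, fragment counts scaled by gene length and library size, as mean ± SD over the 3 libraries. Nearly all genes had some reads, so each gene was set against the 1416 olfactory and vomeronasal receptor genes, chemosensory genes of the nose, whose median was 2.97 FPKM in replicate 1, 2.35 in replicate 2 and 2.62 in replicate 3. A gene was called above this background where limma's treat test found its log2(FPKM + 1) over 2 above the receptor median, which is 5.13-fold in FPKM, at a Benjamini-Hochberg adjusted p under 0.05 over all genes. Of the mesenchymal source cell markers 1 of 9 was called, vimentin (Vim) at 172 ± 63.0 FPKM, with 5 at an unadjusted p under 0.05, 5 called by edgeR and 2 by DESeq2. The median of that list was 19.9 ± 5.79 FPKM, and its surface markers Thy1 (7.49 FPKM), Pdgfrb (7.05), Nt5e (5.04) and Eng (4.39) were lower than its matrix and cytoskeleton genes. The list medians of neuron (6.25 FPKM), ciliated cell (5.69), male germ cell (3.68), blood cell (5.69) and platelet markers (7.35) were in the range of those surface markers or below it. Limma called none of their 10, 7, 7, 7 and 4 measured genes, with 1, 0, 1, 0 and 0 at an unadjusted p under 0.05. EdgeR called 1, 0, 1, 0 and 0, and DESeq2 called 0 in each list. For these and the mesenchymal list, the shares called over nuclear protein-coding genes were 1.55% by limma, 3.58% by edgeR and 1.53% by DESeq2. At such shares, 0 in lists of 4 to 10 genes does not set them apart. Some members of these lists were higher than the medians show. The neuron marker Nefm had 24.4, 20.9 and 20.7 FPKM in replicates 1, 2 and 3 (adjusted p 0.0706, limma). The male germ cell marker Tnp1 had 18.7, 20.5 and 23.8 FPKM (adjusted p 0.207, limma). Both lay above those surface markers and near the mesenchymal list median of 19.9 FPKM.

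Of the 99 genes, 7 stood above the receptor background, against 1.55% of nuclear protein-coding genes and 1.79% of all genes. They were 3 dynein subunit genes (Dynll2, Dync1li2 and Dync2i1), 3 tubulin genes (Tuba1a, Tuba1c and Tubb5) and Map4, and they held 43.6% ± 6.61 (SD, n = 3) of the summed FPKM of the 99. The other 92 genes lay between 0.229 and 24.8 FPKM. The median of all 99 genes was 6.43 ± 0.209 FPKM, against 4.83 ± 0.380 for nuclear protein-coding genes and 2.64 ± 0.314 for receptor genes. Together the 99 held 0.663% ± 0.0466 of the summed FPKM of nuclear protein-coding genes. In every library 84 of the 99 lay above the receptor median, a share that was 69.4% over nuclear protein-coding genes, and 10 of the 99 exceeded 99% of receptor genes, where the share was 3.21%. Without replicate 1 the test called 9 of the 99, against 2.53% of nuclear protein-coding genes, and without replicate 2 it called 2, Dynll2 and Dync1li2, against 0.769%. Without replicate 3 limma called 0 of the 99 and 0 of all 29684 genes (0.0%), with 9 of the 99 at an unadjusted p under 0.05. DESeq2 on the counts called 7 of the 99 (background 1.53%), and edgeR's quasi-likelihood test called 10 (background 3.58%), the 3 added being Kif5b, Tubb4b and a second Tuba1c gene. With other settings of the limma test the members called numbered 8 at a pseudocount of 0.1 (background 2.48%), 7 after genes with a mean FPKM under 1 were left out (1.33%), 4 with a robust prior variance (0.972%), 6 with a single prior variance (1.26%), 18 at a threshold of 1 (8.9%) and 41 in CPM (16.3%).

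**Figure D1:**
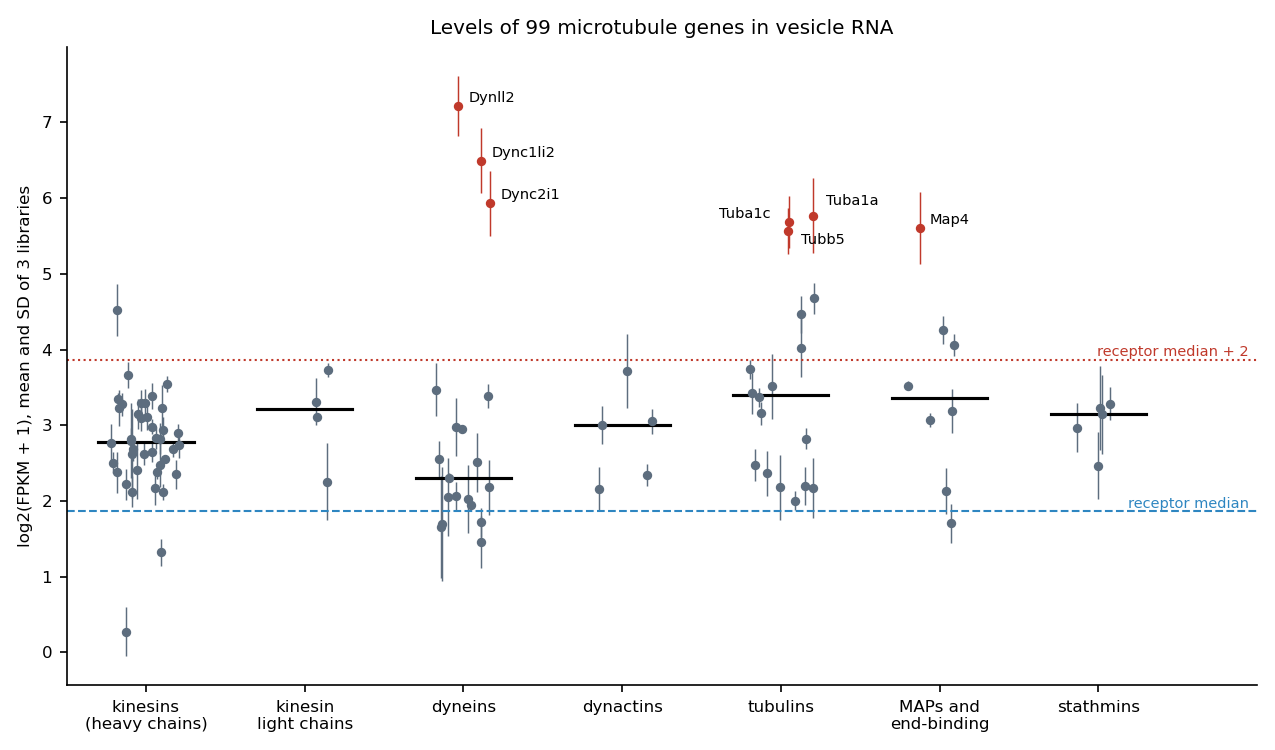
Mean and SD over 3 libraries of log2(FPKM + 1) for each of the 99 genes, grouped by family along the horizontal axis, with a black bar at each family's median, a dashed line at the receptor gene median and a dotted line 2 above it. The 7 labelled red genes are those called by limma's treat test, and no kinesin, light chain, dynactin or stathmin is among them. The test called 1.55% of nuclear protein-coding genes.

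The families differed in their medians and in how far their highest members stood out. The median was 9.06 ± 0.409 FPKM for tubulins, 9.48 ± 0.673 for the end-binding and associated proteins, 8.38 ± 1.02 for kinesin light chains and 7.81 ± 0.240 for stathmins. It was 6.68 ± 0.992 FPKM for dynactin subunits, 5.92 ± 0.614 for kinesins and 4.40 ± 0.601 for dynein subunits. Dynein subunits had the lowest median of the 7 families and the 3 highest genes. On the log2(FPKM + 1) scale the tubulin median exceeded the kinesin median by 0.54 ± 0.10 and the median of dyneins with dynactins by 0.85 ± 0.18, each in 3 of 3 libraries. The dynein and dynactin median minus the kinesin median was -0.31 ± 0.19, below 0 in 3 of 3 libraries. No p is given for these medians, since 3 libraries allow no p below 0.25 in an exact two-sided sign-flip test. With means in place of medians the last difference turned to 0.20, and in CPM, where gene length plays no part, tubulins minus kinesins turned to -0.53. The median gene length that the counts and FPKM imply was 2.03 kb for tubulins, 2.47 kb for dyneins with dynactins and 4.67 kb for kinesins.

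Dynein subunits were uneven within cytoplasmic dynein 1 and within dynein 2. Dynll2, an LC8-type light chain that dynein shares with other complexes (ENSRNOG00000008921, chromosome 10, 72767035 to 72785805, in build mRatBN7.2 as for all positions here), had 108, 167 and 180 FPKM in replicates 1, 2 and 3. It was the highest of the 99 genes and number 174 of all genes by mean FPKM. Dync1li2, a light intermediate chain that links dynein to cargo adaptors (ENSRNOG00000025791, chromosome 19, 531812 to 554670), had 63.5, 113 and 98.5 FPKM. Dync2i1, an intermediate chain of the dynein 2 motor that returns cargo along cilia (ENSRNOG00000004520, chromosome 6, 137133418 to 137188719), had 43.2, 77.7 and 64.2 FPKM. For each of these genes replicate 1 was the lowest library, and Dync2i1 there had 14.5 times the receptor median of that library.

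In log2(FPKM + 1), Dynll2 exceeded the receptor median by 5.35 (SE 0.24, adjusted p 0.00382, limma), Dync1li2 by 4.63 (SE 0.25, adjusted p 0.00761) and Dync2i1 by 4.07 (SE 0.24, adjusted p 0.0156). Among the 24 dynein and dynactin genes these were the 3 called, against 1.55% of nuclear protein-coding genes. Without replicate 2 the first pair was called (background 0.769%). Without replicate 3 none was (background 0.0%), with 3 at an unadjusted p under 0.05.

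The partners of these subunits were far lower. Dync1h1, the heavy chain that carries the motor, had 6.89, 6.73 and 6.52 FPKM, and Dync1i2, an intermediate chain, had 4.89, 7.35 and 8.97. Dync1li1, the paralogue of Dync1li2, had 2.48, 3.58 and 4.81 FPKM. The FPKM of Dync1li2 was 25.9 ± 5.55 times that of Dync1li1 and 13.7 ± 3.97 times that of Dync1h1, and their ranges did not overlap. In replicate 1 Dync1li1 was below the receptor median of 2.97, so the first ratio sets a called gene against one near background. With Dynll1 left out by the choice of genes, the remaining light chains of cytoplasmic dynein were led by Dynlrb1 at 10.3 ± 2.58 FPKM and Dynlt1 at 9.47 ± 1.14, and Dynll2 had 14.7 ± 0.219 times the FPKM of Dynlrb1. Of the 10 genes listed for dynein 1, 2 were called, against 1.55% of nuclear protein-coding genes.

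Dynein 2 showed a similar split. Its heavy chain Dync2h1 had 2.24, 1.91 and 2.76 FPKM, Dync2li1 had 2.88, 2.82 and 2.89, and Dync2i2 had 3.06, 4.55 and 1.98. Dynlt2b, a light chain of dynein 2, was the lowest of the dynein genes at 1.80 ± 0.660 FPKM. Its pseudogene Dynlt2b-ps1 had 3.95 ± 0.209 FPKM, and whether the pair shares reads was not tested. Dync2h1, Dync2li1, Dync2i2 and Dynlt2b had means of 1.80 to 3.20 FPKM, beside a receptor median of 2.64, while Dync2i1 was 27.8 ± 11.4 times Dync2h1 and 21.2 ± 9.80 times Dync2i2. The 7 ciliated cell markers measured, with a highest member of 6.86 FPKM, had no gene called. With 1.55% of nuclear protein-coding genes called by limma, 0 of 7 does not set them apart.

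Dynactin subunits were lower than the called dynein genes. Dctn2, the dynamitin subunit of the dynactin shoulder, had 8.15, 16.8 and 13.1 FPKM, and the other 4 ranged from 3.53 FPKM for Dctn4 to 7.33 for Dctn6. None of the 5 was called by limma, at an unadjusted p under 0.05, by edgeR or by DESeq2 (0 in each case). With 1.55% of nuclear protein-coding genes called by limma, 0 of 5 does not set dynactins apart. Dctn2 overlaps Kif5a and Mbd6 on the opposite strand.

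**Figure D2:**
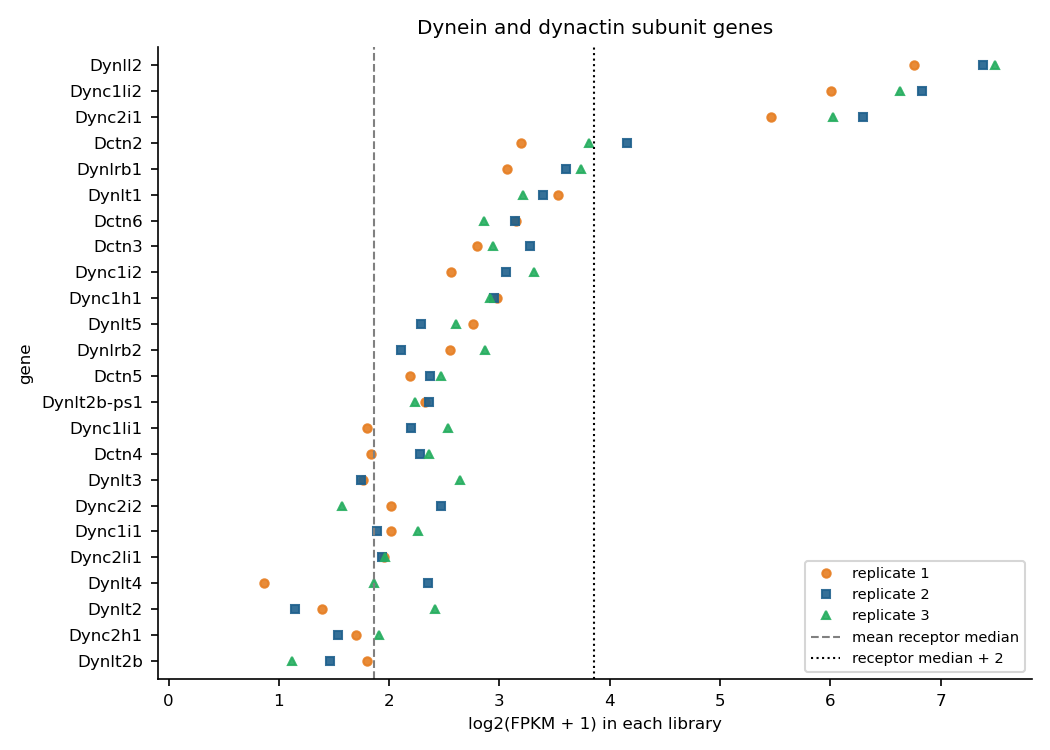
log2(FPKM + 1) of each dynein and dynactin gene in replicates 1, 2 and 3 on the horizontal axis, with genes ordered by mean FPKM, a dashed line at the mean receptor median and a dotted line 2 above it. Dynll2, Dync1li2 and Dync2i1 lie to the right of the dotted line in each library, and the remaining 21 genes lie to its left except Dctn2 in replicate 2.

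Tubulins were led by alpha and beta isotypes of the common microtubule lattice. Tuba1a, an alpha tubulin (ENSRNOG00000053468, chromosome 7, 130081032 to 130116912), had 35.8, 68.9 and 62.0 FPKM in replicates 1, 2 and 3. Tuba1c, another alpha tubulin (ENSRNOG00000021438, chromosome 7, 130192016 to 130199647), had 39.2, 63.3 and 52.0. Tubb5, a broadly expressed beta tubulin (ENSRNOG00000061216, chromosome 20, 2912778 to 2916940), had 36.3, 55.3 and 49.3 FPKM. The ranges of these 3 genes overlapped, and replicate 1 was lowest for each. They lay 3.91 (SE 0.26, adjusted p 0.0271), 3.83 (SE 0.21, adjusted p 0.0159) and 3.70 (SE 0.20, adjusted p 0.0165) above the receptor median in log2(FPKM + 1) by limma's treat test. Of the 18 tubulins 3 were called, and 4 without replicate 1, 0 without replicate 2 and 0 without replicate 3, with 5 at an unadjusted p under 0.05 in each of the last 2 cases. In that order the shares over nuclear protein-coding genes were 1.55%, 2.53%, 0.769% and 0.0%.

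Next in order came a gene on chromosome X that is also named Tuba1c, from 149691397 to 149692751, with 21.0, 28.1 and 25.3 FPKM. Its reads can come from other alpha tubulin genes, and Tuba1c on chromosome 7 had 2.06 ± 0.192 times its FPKM. Tubb4b had 21.3 ± 3.64 FPKM and Tubb6 15.7 ± 4.21, and Tubb5 had 2.20 ± 0.0865 times the FPKM of Tubb4b. The X-linked gene (adjusted p 0.109) and Tubb4b (adjusted p 0.349) were not called by limma, and edgeR's quasi-likelihood test on the counts called both.

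Isotypes known for particular cells ranged from near the receptor median to near the tubulin median. Tubb3, a beta tubulin of neurons, had 5.10, 3.21 and 2.57 FPKM, and of the brain-enriched isotypes Tubb4a had 4.60 ± 0.839 and Tubb2a 7.96 ± 0.935. Tuba8 had 10.3, 7.49 and 14.5 FPKM, with a mean above the tubulin median of 9.06. Tubb1, the beta tubulin of platelets and megakaryocytes, had 6.11 ± 0.725 FPKM. Tuba3a and Tuba3b, of a testis-enriched alpha tubulin group, had 3.66 ± 1.41 and 3.02 ± 0.345. Tubb5 had 14.5 ± 6.47 times the FPKM of Tubb3, which in replicate 3 lay near the receptor median of 2.62. Tubg1, a gamma tubulin of the nucleation complex, had 12.4 ± 1.23 FPKM and Tubg2 9.35 ± 0.934, while delta (Tubd1, 4.23 ± 1.12) and epsilon tubulin (Tube1, 3.63 ± 0.778), which serve centrioles, lay closer to the receptor median.

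Near-identical coding sequences make the level of single tubulin genes uncertain, because the treatment of reads with several matches is not given in the sources used here. The table's Tuba1a spans 35.9 kb. In the RefSeq annotation of assembly GRCr8 its neighbour is Tuba1b. The choice by symbol would have taken a protein-coding gene named Tuba1b, but the genes measured held none. Whether reads of Tuba1b are in the Tuba1a count was not tested.

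**Figure D3:**
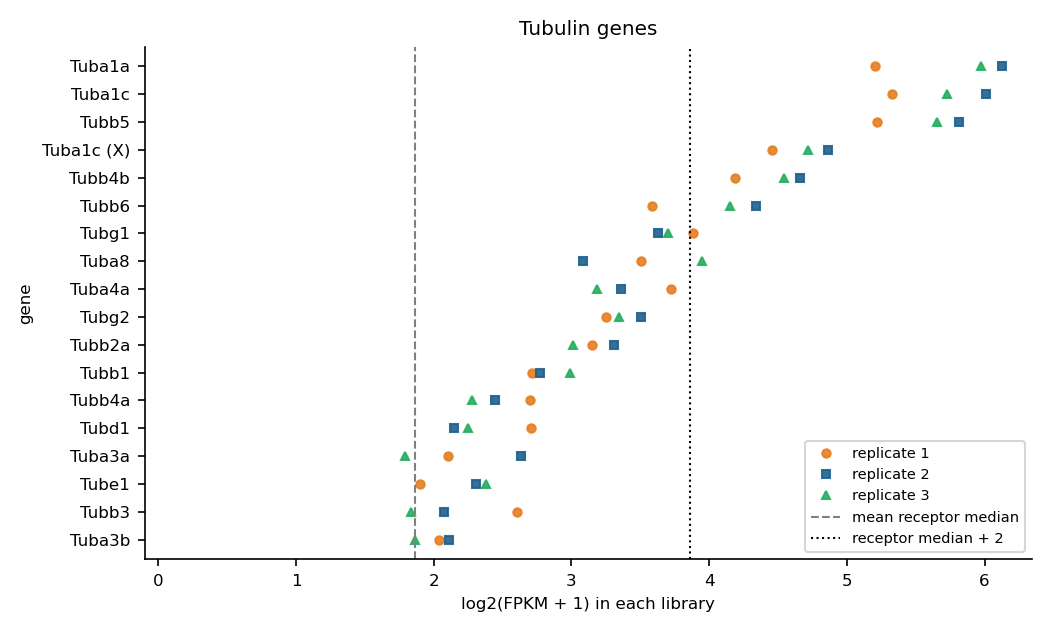
log2(FPKM + 1) of the 18 tubulin genes in replicates 1, 2 and 3 on the horizontal axis, with genes ordered by mean FPKM, a dashed line at the mean receptor median and a dotted line 2 above it. Tuba1a, Tuba1c and Tubb5 are the 3 highest, and Tubb3, Tuba3a and Tuba3b are among the genes nearest the dashed line.

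Kinesins had no gene called among the 40 once Kif1c was set aside. Limma's treat test called 0, with 1 at an unadjusted p under 0.05, edgeR's quasi-likelihood test called 1 and DESeq2 called 0. Over nuclear protein-coding genes the shares were 1.55% by limma, 3.58% by edgeR and 1.53% by DESeq2. At such shares these counts do not set the 40 kinesins apart from other genes. The gene at the unadjusted threshold and the edgeR call was Kif5b, the broadly expressed heavy chain of conventional kinesin (ENSRNOG00000017466, chromosome 17, 51489944 to 51527508), with 16.4, 25.5 and 25.1 FPKM. It lay 2.66 above the receptor median (SE 0.21, adjusted p 0.408, limma) and was called without replicate 1. Its neuronal paralogues were lower, Kif5c at 12.0, 13.1 and 10.1 FPKM and Kif5a at 9.69, 8.56 and 9.21. Kif5b had 1.93 ± 0.550 times the FPKM of Kif5c and 2.47 ± 0.683 times that of Kif5a, and the ranges did not overlap. Kif3b, a subunit of heterotrimeric kinesin-2, had 10.7 ± 0.883 FPKM, and Kif1b, which carries mitochondria and vesicle precursors, had 9.48 ± 1.24.

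Kif1c, left out by the choice of genes, is a kinesin that moves to protrusions and had 926, 1470.4 and 1399 FPKM. The count of 0 kinesins therefore rests on leaving it out, and with it 1 of 41 would be called. With Dynll1, the paralogue of Dynll2, at 72.2, 174 and 121 FPKM, 4 of 20 dynein genes would be called. The share over nuclear protein-coding genes was 1.55%.

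Transport kinesins and mitotic kinesins were compared as textbook subsets. The 16 transport kinesins had a median of 7.79 ± 0.301 FPKM and ranged from 4.22 (Kif16b) to 22.3 (Kif5b). The 14 mitotic kinesins had a median of 4.88 ± 0.143 and ranged from 0.229 (Kif22) to 8.53 (Kif18b), close to the median of nuclear protein-coding genes. Kif11, which pushes spindle poles apart, had 3.38 ± 0.646 FPKM, Kif20a 4.70 ± 0.536, and Kif23, a motor of the cytokinesis midzone, 4.74, 9.31 and 4.69. Kif22, a chromosome-arm motor, had 11, 0 and 4 counts in replicates 1, 2 and 3. In the table it lies on the same strand as Maz, which shares 15219 bases with it, so its level is uncertain. In both subsets limma called 0 genes (1 transport and 0 mitotic kinesins at an unadjusted p under 0.05, 1 and 0 by edgeR, 0 and 0 by DESeq2). With 1.55% of nuclear protein-coding genes called by limma, 0 in subsets of this size does not set them apart.

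Kinesin light chains, which bind cargo for conventional kinesin, were led by Klc1. Klc1 had 11.3, 12.7 and 12.8 FPKM and Klc2 7.49, 7.72 and 7.78. Klc4 had 9.09 ± 2.16 FPKM, and Klc3, a light chain known from testis, had 5.81, 2.36 and 3.72, below Klc1 in each library. Limma, edgeR and DESeq2 called 0 of the 4, and 0 had an unadjusted p under 0.05. The limma share over nuclear protein-coding genes was 1.55%, so 0 of 4 does not set them apart.

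**Figure D4:**
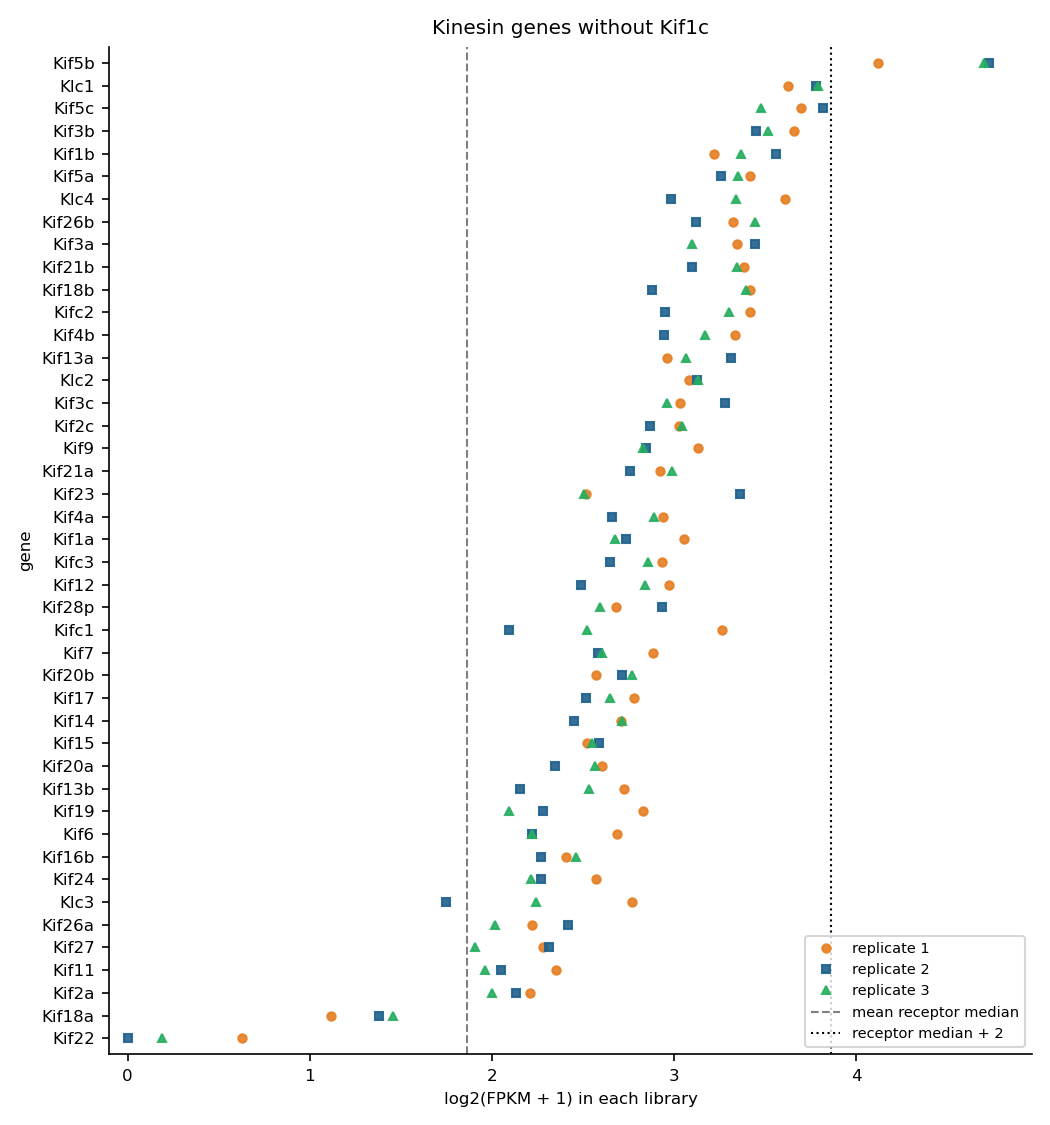
log2(FPKM + 1) of the 40 kinesins and 4 kinesin light chains in replicates 1, 2 and 3 on the horizontal axis, with genes ordered by mean FPKM, a dashed line at the mean receptor median and a dotted line 2 above it. Kif5b is the highest and the only one right of the dotted line in every library, and Kif22 is the lowest.

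Map4 was the highest of the associated proteins and the only one of the 8 called, against 1.55% of nuclear protein-coding genes. Map4, the main microtubule stabiliser of non-neuronal cells (ENSRNOG00000020748, chromosome 8, 109925575 to 110064362), had 32.4, 56.0 and 59.7 FPKM and lay 3.74 above the receptor median (SE 0.25, adjusted p 0.0309, limma). With either replicate 2 or replicate 3 left out it was not called. Map1b and Map1a, large proteins best known from neurons, had 15.5, 20.0 and 19.0 FPKM and 14.1, 17.4 and 15.8 FPKM. Map4 had 2.67 ± 0.535 times the FPKM of Map1b. Map1a overlaps Tp53bp1 on the opposite strand over 6672 bases. Mapre1, an end-binding protein of growing plus ends, had 10.1, 11.0 and 10.3 FPKM, while Mapre3 had 3.44 ± 0.880. Map7, which recruits conventional kinesin, had 8.22 FPKM, Map9 7.43 ± 0.549, and Map1s was lowest at 2.29 ± 0.597.

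Stathmins, which sequester tubulin dimers, had means from 4.70 to 8.82 FPKM. Stmn1, the form of dividing cells, had 5.03, 10.8 and 10.6 FPKM, Stmn3 had 11.1, 4.95 and 8.56, and Stmnd1 had 8.82 ± 1.53. Replicate 1 was the lowest for Stmn1 and the highest for Stmn3, so the order of these genes differed between libraries. Stmn2, a neuronal growth protein, had 4.70 ± 1.69 FPKM. None of the 5 was called by limma, at an unadjusted p under 0.05, by edgeR or by DESeq2 (0 in each case). The 15 neuron-enriched genes among the 99, which include Stmn2, Tubb3, Kif5a and Map1b, had a median of 7.35 ± 0.499 FPKM. The median was 6.43 ± 0.209 FPKM for all 99 and 4.83 ± 0.380 for nuclear protein-coding genes. Limma and DESeq2 called 0 of the 15, edgeR 0, and 1 (Map1b) had an unadjusted p under 0.05. The 15 were listed with earlier results known and without Tuba1a (55.6 ± 17.5 FPKM, called), so the 0 depends on which genes were listed. With 1.55% of nuclear protein-coding genes called by limma, 0 of 5 stathmins or of 15 such genes does not set either group apart.

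Other microtubule genes outside the families were measured beside them. Of 19 dynein adaptors and regulators 1 was called, against 1.55% of nuclear protein-coding genes. It was Trak2, which ties mitochondria to kinesin and dynein, with 130, 281 and 233 FPKM (5.82 over the receptor median in log2(FPKM + 1), adjusted p 0.00513, limma). Its paralogue Trak1 had 8.67, 7.91 and 7.76 FPKM. The median of this list was 4.99 ± 0.246 FPKM, and without replicate 3 limma called 0 of the 19 and 1 at an unadjusted p under 0.05. Plus-end and lattice proteins had a median of 6.08 ± 0.510, led by the linker Dst with 16.6, 25.3 and 24.1 FPKM, with means of 17.7 for Map7d1 and 11.8 for Apc. Spindle proteins had 6.08 ± 0.369, with Tpx2 at 13.8 FPKM, Tacc3 at 9.53 and Haus6 at 9.18. Tubulin folding and modification genes had 6.53 ± 0.753, with Vash1 at 23.8, the folding cofactor Tbca at 22.8 and Tbcb at 16.4. Limma called 0 of these 26, 18 and 29 genes (2, 0 and 2 at an unadjusted p under 0.05, 2, 0 and 2 by edgeR, 0 in each by DESeq2). With 1.55% of nuclear protein-coding genes called by limma, 0 in lists of this size does not set them apart.

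Annotations of the called genes, 7 of the 99 against 1.55% of nuclear protein-coding genes, were counted in the authors' table. Of the 99 genes 78 carried the KEGG pathway Motor proteins, of which 5 were called by limma's treat test, and 19 carried Phagosome, of which 4 were called. By gene ontology, 22 carried microtubule-based process, of which 4 were called, and 38 carried microtubule motor activity, of which 0 were called by limma with Kif1c left out of the genes chosen. The median implied length was 3.54 kb for the 7 called genes and 3.31 kb for the other 92. Of the 99 genes 26 overlapped another gene of the table, and among the 7 this was Tuba1a alone, with a gene of 2.96 FPKM on the opposite strand.

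The called genes differed between libraries in the same direction. All 7 were lower in replicate 1 than in replicates 2 and 3, with a median log2(FPKM + 1) difference of -0.70 between replicate 1 and the mean of the other two. Among all 352 called nuclear protein-coding genes 81.8% were lowest in replicate 1, with a median difference of -0.68, against 24.1% of those not called and 25.0% of all nuclear protein-coding genes. Among the 92 genes that were not called, 26 were lowest and 38 highest in replicate 1 (highest in 45.6% of nuclear protein-coding genes), with a median difference of 0.05. Receptor genes had a median difference of 0.23. The depth of replicate 1 was also the lowest, and its part in this difference was not tested. Across the 99 genes, which share libraries and are no replicates of each other, replicate 1 had a Pearson correlation of log2(FPKM + 1) of 0.923 with replicate 2 and 0.936 with replicate 3, and the remaining pair had 0.955. Over the 92 genes not called it was 0.835 to 0.893.

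**Figure D5:**
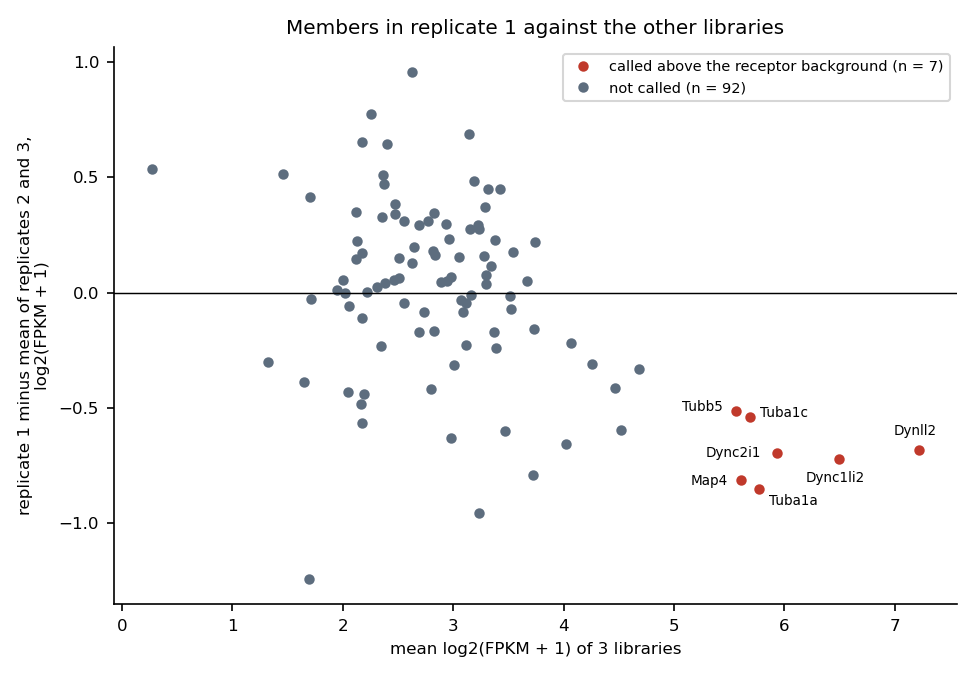
Difference in log2(FPKM + 1) between replicate 1 and the mean of replicates 2 and 3 on the vertical axis, against the mean log2(FPKM + 1) of the 3 libraries, for each of the 99 genes. The 7 called genes, in red, all lie below 0, and the 92 others scatter on both sides.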

How the data were processed

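RNA of vesicles in 3 libraries of 1 group was made into stranded total RNA libraries with a low-input kit and removal of ribosomal cDNA, per the labels' protocols, which name no molecular identifiers. Per the submitters' processing notes, cutadapt 1.9 and FastQC were used with build mRatBN7.2; no source used here gives the aligner, the counter or its use of strand. The deposited table holds the authors' raw gene counts and FPKM per library. The authors' mean FPKM was not used.

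Levels in log2(FPKM + 1) were taken relative to the receptor gene median of each library. They were tested over all 29684 genes with limma 3.58.1 (treat, threshold 2, prior variance following the level) in R 4.3.3. The test was also run on simulated independent libraries, which held no difference between libraries like that of replicate 1 here. Alternatives included edgeR 4.0.16 and DESeq2 1.42.0 on the counts with gene length and the receptor median as offsets. The members, the gene lists and this test were chosen with earlier results of these data known. Genes were named if called, if among the highest 3 or 5 of a family, if lowest in it or if nearest the threshold; textbook isotypes and subunits outside that rule were named after their values were seen. Symbols of all 99 members matched RefSeq (GRCr8).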

Additional observations from a re-analysis of the deposited data

How the results depend on the processing

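The count of called genes depended on the libraries and on the unit. Leaving out 1 library in turn gave 0 to 9 called genes of the 99. By family it gave 0 to 1 kinesins, 0 to 3 dyneins and dynactins, 0 to 4 tubulins and 0 to 1 associated proteins and stathmins. With all 3 libraries the counts were 7 in all, and 0, 3, 3 and 1 by family. The 0 of the 99 was without replicate 3, when no gene of the table was called. Without replicates 1, 2 and 3 in turn, the shares over nuclear protein-coding genes were 2.53%, 0.769% and 0.0%. With CPM, 41 of the 99 were called (22 kinesins, 6 dyneins and dynactins, 6 tubulins, 6 associated proteins and stathmins), against 16.3% of nuclear protein-coding genes; CPM does not divide by length. A robust prior called 4 in all, 1 tubulin and 0 associated proteins and stathmins, and a single prior variance called 0 of the last group. Over nuclear protein-coding genes the shares were 0.972% with the robust prior and 1.26% with the single prior variance. At a threshold of 1, 18 were called (3 kinesins, 7 tubulins, 4 associated proteins and stathmins), against 8.9% of nuclear protein-coding genes. EdgeR on the counts called 10 (1 kinesin, 5 tubulins), against 3.58%. With Kif1c added, an alternative chosen after seeing the data, 1 kinesin was called. A pseudocount of 0.1 called 8 (background 2.48%), and a mean FPKM of at least 1 (1.33%) or DESeq2 (1.53%) called 7. EdgeR's glmTreat takes no design with 1 column, so its quasi-likelihood F statistic against the threshold was used.

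The tubulin minus kinesin difference of 0.54 turned to -0.53 with CPM and was 0.78 with means. Tubulins minus dyneins and dynactins was 0.85, and 0.58 with means. Dyneins and dynactins minus kinesins was -0.31, and -1.29 with CPM and 0.20 with means. Leaving out a library in turn moved none of these beyond its SD. Rescaling without mitochondrial and structural RNA raised the median of all genes by 0.90 on the log2 scale and moved no family difference beyond its SD. Family medians in log2(FPKM + 1) were 3.33 for tubulins, 2.79 for kinesins and 2.48 for dyneins and dynactins; in that order they were 3.19, 2.58 and 2.22 with a pseudocount of 0.1, 4.91, 5.44 and 4.14 with CPM, 4.29, 3.71 and 3.38 after that rescaling, and as means 3.53, 2.76 and 2.95. Map1s, below the receptor median by FPKM, lay on the other side of it with CPM (0.64). Dynll2 and Dync1li2 were called in 10 of 11 alternatives, Dync2i1 and Tuba1c of chromosome 7 in 9, Tuba1a and Tubb5 in 8 and Map4 in 7. No paired analysis was possible because there was 1 group.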

Other observations

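Axonemal dyneins, the motors of beating cilia, were looked at after the dynein values had been seen. The 22 genes (heavy, intermediate and light chains) had a median of 5.39 ± 0.260 FPKM over the 3 libraries and ranged from 2.03 to 10.3 FPKM. Limma's treat test called 0 of them, with 0 at an unadjusted p under 0.05, 0 by edgeR and 0 by DESeq2. With 1.55% of nuclear protein-coding genes called by limma, 0 of 22 does not set them apart. Nudc, a regulator of the dynein complex that was noticed in the table and was in none of the lists, had 47.4, 107 and 74.4 FPKM in replicates 1, 2 and 3 and was called (adjusted p 0.0202, limma), at 4.34 over the receptor median in log2(FPKM + 1) with an SE of 0.29. Its pseudogene Nudc-ps1 had 31.4, 9.70 and 18.8 FPKM, and both can share reads.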
